A study of Rattus norvegicus with 28 samples.

Results

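Klk1 and Klk1c4 are 2 genes of the rat tissue kallikrein family, and both were read in whole kidney on a short-oligonucleotide expression array. The members were the probe sets (groups of short probes summarised as 1 value) that the array's annotation names exactly Klk1 or Klk1c4. That rule found 2 probe sets, 1 for each gene, of 31042 probe sets and 14217 named genes in all. The pair was selected on its measured levels by strain and kidney number on these same arrays, so all differences between groups for both genes are given as descriptions, with a standard error and no test.

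The 28 arrays came from 2 Sabra rat strains, SBH/y, which is prone to salt-sensitive hypertension, and SBN/y, which is resistant to it. The 4 groups held 7 arrays each: SBH/y rats left with 1 kidney by removal of the right kidney, sham-operated SBH/y rats with 2 kidneys, SBN/y rats with 1 kidney, and sham-operated SBN/y rats with 2 kidneys. All rats were female, ate standard chow, and were 5 months old, 4 months after the operation. Whether every array is a different rat is not stated in the labels, and p-values here measure the spread between arrays, which may be technical. Values are log2 after robust multi-array averaging (RMA), a summary that forces the arrays to a common distribution, and array medians lay between 5.72 and 5.77. Probe sets differ in how brightly they bind, so levels are compared between arrays within a probe set and not between genes. The proximal tubule marker list, with 16 of 16 genes measured, had a summed level between 15.5 and 15.7 (log2) on every array, and the exocrine gland list stayed between 7.32 and 8.45.

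Tissue kallikrein is a serine protease that releases kinins from kininogen. In the kidney it is made mainly by connecting tubule cells and secreted into the tubular fluid, where kinins acting through the Bdkrb2 receptor favour vasodilation and sodium excretion. The gene has expanded in rodents into a cluster of near-identical copies, and many of the rat copies are best known from the salivary glands. In the RefSeq gene order on rat chromosome 1, Klk1c4 stands between Klk1c10 and Klk1c6, and Klk1 stands between Klk1c9 and Klk5l2. RefSeq lists rGK-7 as an older name of Klk1, rGK-1 as one of Klk1b3, and Ton (tonin, a protease that can release angiotensin II) as one of Klk1c2. The symbol Klk1 itself is also listed there among the other names of Klk1b3.

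The promoter windows of Klk1, Klk1c4 and Klk1b3 are shown because copies this alike in sequence gave unlike patterns across the groups, with Klk1 and Klk1b3 on one side and Klk1c4 on the other. Each window runs from 250 bases before to 50 bases after the transcript start that RefSeq annotates on GRCr8, 5′ to 3′ on the gene's own strand. Capitals mark the hexamer TTTAAA, which resembles a TATA box and reads the same on both strands.
Klk1: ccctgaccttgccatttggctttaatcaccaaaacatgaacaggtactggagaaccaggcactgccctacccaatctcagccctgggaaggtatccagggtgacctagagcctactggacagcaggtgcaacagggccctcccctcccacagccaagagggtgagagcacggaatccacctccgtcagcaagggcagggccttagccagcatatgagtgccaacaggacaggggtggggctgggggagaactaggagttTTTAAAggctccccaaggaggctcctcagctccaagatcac
Klk1c4: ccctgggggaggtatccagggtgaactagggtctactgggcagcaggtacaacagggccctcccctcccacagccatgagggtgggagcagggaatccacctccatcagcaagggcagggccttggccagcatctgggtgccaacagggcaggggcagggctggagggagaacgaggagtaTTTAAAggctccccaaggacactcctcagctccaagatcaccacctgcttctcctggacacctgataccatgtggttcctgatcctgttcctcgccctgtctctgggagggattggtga
Klk1b3: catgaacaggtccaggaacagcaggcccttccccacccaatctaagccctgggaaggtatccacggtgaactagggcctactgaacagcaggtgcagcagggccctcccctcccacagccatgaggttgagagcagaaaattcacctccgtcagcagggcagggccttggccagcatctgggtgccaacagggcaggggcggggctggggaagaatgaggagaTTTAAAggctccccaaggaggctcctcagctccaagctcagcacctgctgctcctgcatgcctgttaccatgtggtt
The Klk1 window is chr1:103778902-103779201 on the plus strand, the Klk1c4 window is chr1:103575159-103575458 on the minus strand, and the Klk1b3 window is chr1:103845397-103845696 on the plus strand. Aligned to each other, the Klk1 and Klk1c4 windows matched at 200 of 220 aligned bases (90.9%), Klk1 and Klk1b3 at 88.6%, and Klk1c4 and Klk1b3 at 90.2%. The hexamer occurred once in each of the 9 family windows in the table, against 13.6% of 33469 rat promoter windows. It starts at base 182 of 300 in Klk1c4, at base 224 in Klk1b3 and at base 260 in Klk1, past the annotated start in the last. AGAACA, the core hexamer of the glucocorticoid and mineralocorticoid response element, was searched on both strands and was in none of these 9 windows, against 20.7% of all windows. These matches describe letters in a window and not sites.

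Klk1c4 was lower in the kidneys of rats with 1 kidney than in those of rats with 2 in both strains. In SBH/y, the values after uninephrectomy were 5.61, 6.30, 6.26, 5.48, 5.48, 4.51 and 5.48, against 8.27, 8.44, 8.26, 8.29, 8.27, 7.82 and 7.91 with 2 kidneys. The highest array with 1 kidney lay well below the lowest array with 2. The difference was -2.59 ± 0.21 on the log2 scale (± SE), a 6.03-fold lower level, and was the third most negative of 31042. In SBN/y, the values were 6.03, 5.94, 5.50, 4.98, 5.98, 5.10 and 5.85 with 1 kidney, against 7.38, 7.01, 7.75, 6.93, 7.81, 7.29 and 7.16 with 2 kidneys. The groups again did not overlap. The difference there was -1.71 ± 0.21, a 3.26-fold lower level, and ranked 2 of 31042 from the most negative. Across all probe sets, 1.07% lay lower without overlap after uninephrectomy in SBH/y and 0.18% in SBN/y, and since the gene was chosen with these values known, nothing is read from that setting. A 2-fold lower level was reached in SBH/y by 15 probe sets (0.0483%), and 7 (0.0226%) reached it in SBN/y. Klk1c4 was the 1 probe set on both lists. A smaller number of cells that make the transcript and less of it per cell cannot be told apart in whole kidney.

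Between strains, the Klk1c4 difference depended on the number of kidneys. With 1 kidney, the mean was 5.59 ± 0.60 in SBH/y and 5.63 ± 0.44 in SBN/y (SD, n = 7 each), a difference of -0.04 ± 0.21 with overlapping groups. With 2 kidneys, the mean was 8.18 ± 0.23 in SBH/y and 7.33 ± 0.34 in SBN/y, a difference of 0.85 ± 0.21. The 2-kidney groups did not overlap, but by a narrow margin, since the lowest SBH/y array was at 7.82 and the highest SBN/y array at 7.81. Higher values without overlap in 2-kidney SBH/y than in SBN/y were found for 3.65% of all probe sets. The effect of uninephrectomy was more negative in SBH/y than in SBN/y by -0.89 ± 0.29. From high to low, the order of the groups was SBH/y with 2 kidneys, SBN/y with 2 kidneys, SBN/y with 1 kidney and SBH/y with 1 kidney, and only the last neighbours overlapped. Both 1-kidney means fell just under 5.74, the median of all probe-set means, where no detection call was used here to tell the transcript from background. If part of that signal is background, the folds above understate the change of the transcript.

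**Figure D1:**
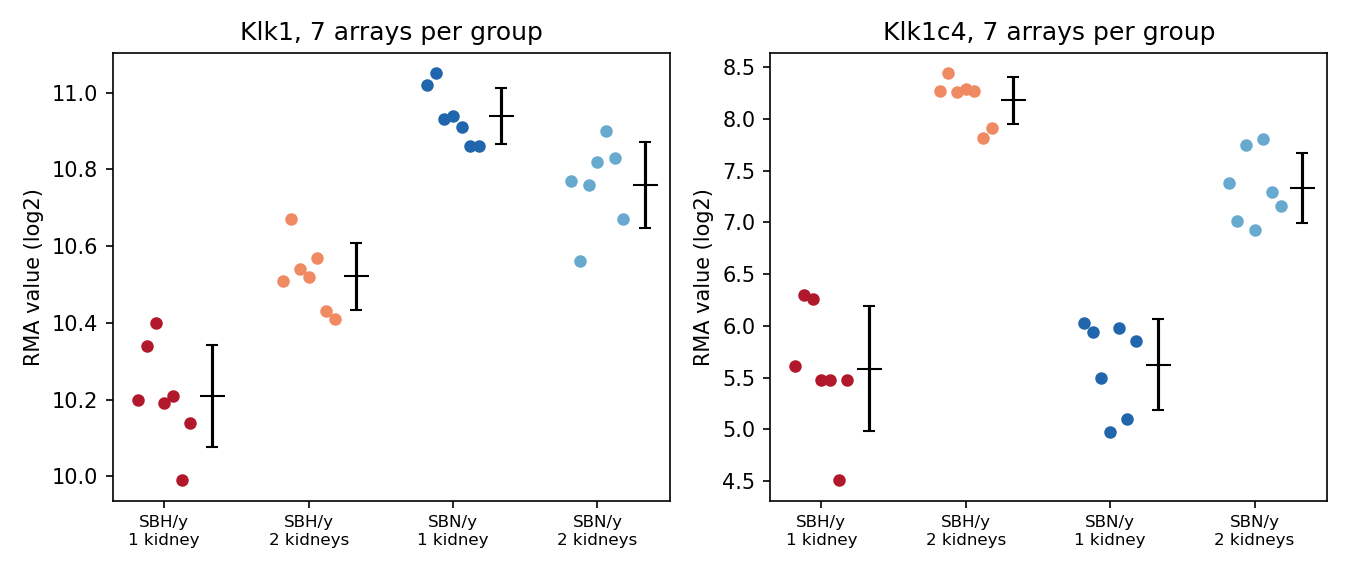
RMA values (log2) of Klk1 (left) and Klk1c4 (right) on each of the 28 arrays, by strain and number of kidneys, with the mean and SD of 7 arrays beside the points. The axes do not start at 0 and differ between panels: Klk1c4 spans 4.51 to 8.44 and separates by the number of kidneys, while Klk1 spans 9.99 to 11.05 and separates mainly by strain.

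Klk1 was lower in SBH/y than in SBN/y, and most so with 1 kidney. With 1 kidney, SBH/y arrays read 10.20, 10.34, 10.40, 10.19, 10.21, 9.99 and 10.14, against 11.02, 11.05, 10.93, 10.94, 10.91, 10.86 and 10.86 in SBN/y. Every SBH/y array lay below every SBN/y array, as 4.21% of all probe sets did in this comparison, and the difference was -0.73 ± 0.06, a 1.66-fold lower level. With 2 kidneys, SBH/y arrays read 10.51, 10.67, 10.54, 10.52, 10.57, 10.43 and 10.41, against 10.77, 10.56, 10.76, 10.82, 10.90, 10.83 and 10.67 in SBN/y. These groups overlapped, with 5 of 7 SBH/y arrays below all SBN/y arrays, and differed by -0.24 ± 0.06.

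Set against the 2-kidney rats, Klk1 with 1 kidney lay on opposite sides in the strains. It averaged 10.21 ± 0.13 with 1 kidney and 10.52 ± 0.09 with 2 kidneys in SBH/y (SD, n = 7 each), a difference of -0.31 ± 0.06. The SBH/y groups did not overlap, but the highest array with 1 kidney (10.40) and the lowest with 2 (10.41) almost touched. It averaged 10.94 ± 0.07 with 1 kidney and 10.76 ± 0.11 with 2 kidneys in SBN/y, a difference of 0.18 ± 0.06, with 5 of 7 arrays above all of the 2-kidney arrays. The effects differed between strains by -0.49 ± 0.08. From high to low, the groups ran SBN/y with 1 kidney, SBN/y with 2 kidneys, SBH/y with 2 kidneys and SBH/y with 1 kidney, and the neighbours overlapped except the last pair. The share of variance between groups was alike for both genes, 88.9% for Klk1c4 and 89.1% for Klk1, although the range over 28 arrays was 3.93 for Klk1c4 and 1.06 for Klk1.

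The other probe sets of the family are given because probes for 1 copy may bind transcripts of another, and probe sequences were not used here to check this. Klk1b3 followed Klk1 closely. Its mean was 10.48 ± 0.17 in SBH/y with 1 kidney, 10.84 ± 0.14 in SBH/y with 2 kidneys, 11.38 ± 0.10 in SBN/y with 1 kidney and 11.30 ± 0.21 in SBN/y with 2 kidneys (SD, n = 7 each). The strain difference of Klk1b3 was -0.90 with 1 kidney and -0.45 with 2, and the effect of uninephrectomy was -0.36 in SBH/y and 0.09 in SBN/y. Klk1c9, read by a probe set whose name marks probes shared between transcripts, averaged 4.37, 5.12, 5.49 and 5.82 in the same order of groups. It was lower with 1 kidney in both strains, by -0.75 in SBH/y and -0.33 in SBN/y, and lower in SBH/y at both kidney numbers, by -1.12 with 1 kidney and -0.70 with 2. The probe sets of Klk1c2, Klk1c3, Klk1c8 and Klk1c10 had group means between 3.28 and 4.34, below every array's median. In the 2-kidney strain comparison, where Klk1c4 was 0.85 higher in SBH/y, 5 of these 6 probe sets had negative differences and Klk1c10 differed by 0.01. Klk1b3 thus went with Klk1 on these arrays, and Klk1c4 did not. Klk1c9 was partly like Klk1, with r of 0.87 to Klk1 and 0.90 to Klk1b3 over 28 arrays, but it was lower with 1 kidney in both strains. The dim Klk1c3 was lower in SBH/y than in SBN/y with 1 kidney, by -0.45 ± 0.08 without overlap, and had r of 0.71 to Klk1.

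**Figure D2:**
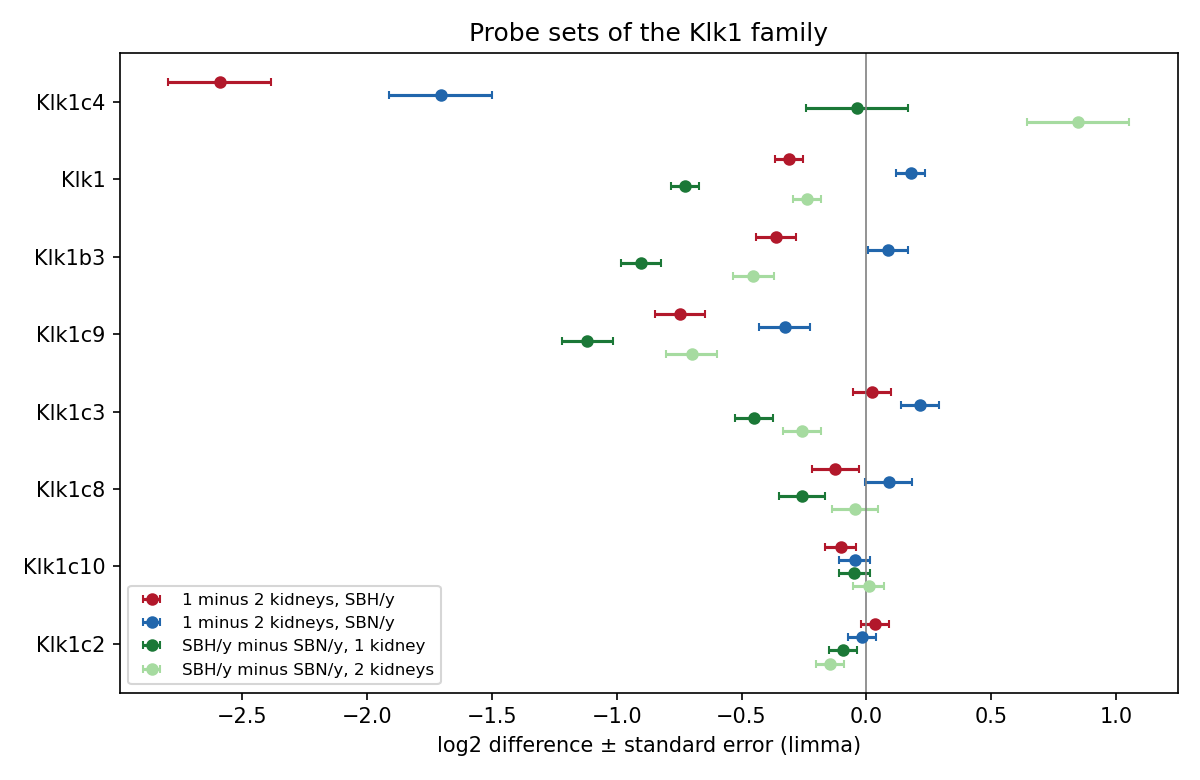
Log2 differences of the 8 probe sets of the Klk1 family in 4 comparisons, with bars for the standard error of the limma fit and 7 arrays per group. Klk1c4 has the most negative values after uninephrectomy (-2.59 in SBH/y and -1.71 in SBN/y), and Klk1, Klk1b3 and Klk1c9 have negative strain differences with 1 kidney (-0.73, -0.90 and -1.12).

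Within SBH/y groups, arrays with more Klk1 also had more Klk1c4. Over the 7 arrays with 1 kidney, Pearson's r was 0.977 (exact permutation p = 0.00496, 0.0464 after Benjamini-Hochberg adjustment over 12 relations), and Spearman's rho was 0.929 (adjusted p = 0.081, exact permutation test). Over the 7 arrays with 2 kidneys, r was 0.892 (exact permutation p = 0.00774, adjusted 0.0464) and rho was 0.786 (adjusted p = 0.265, exact permutation test). The rank measure passed in neither group. Without the 2 arrays farthest from the median of Klk1c4, r was 0.968 and 0.914, but with 5 arrays left the adjusted exact permutation p was 0.32 for both. In SBN/y, r was 0.388 with 1 kidney (adjusted exact permutation p = 0.505) and 0.514 with 2 kidneys (adjusted exact permutation p = 0.345). Whether the strains differ in this relation was not tested. As the groups lie apart, the value over 28 arrays, 0.12, describes the groups and not the arrays, while deviations from the group means gave 0.72. Klk1c4 deviations also went with those of Klk1b3 (0.70) and less with those of Klk1c9 (0.39). Klk1c9 deviations went more with those of Klk1 (0.62) and Klk1b3 (0.65), and arrays share their preparation in all of these. Klk1 with Calb1 reached 0.847 in 2-kidney SBN/y (exact permutation p = 0.0196, adjusted 0.0589). Klk1 with Havcr1 reached -0.839 in 1-kidney SBH/y (exact permutation p = 0.0165, adjusted 0.0589) and -0.791 in 2-kidney SBH/y (exact permutation p = 0.0331, adjusted 0.0795), and none of these 3 passed the adjustment.

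**Figure D3:**
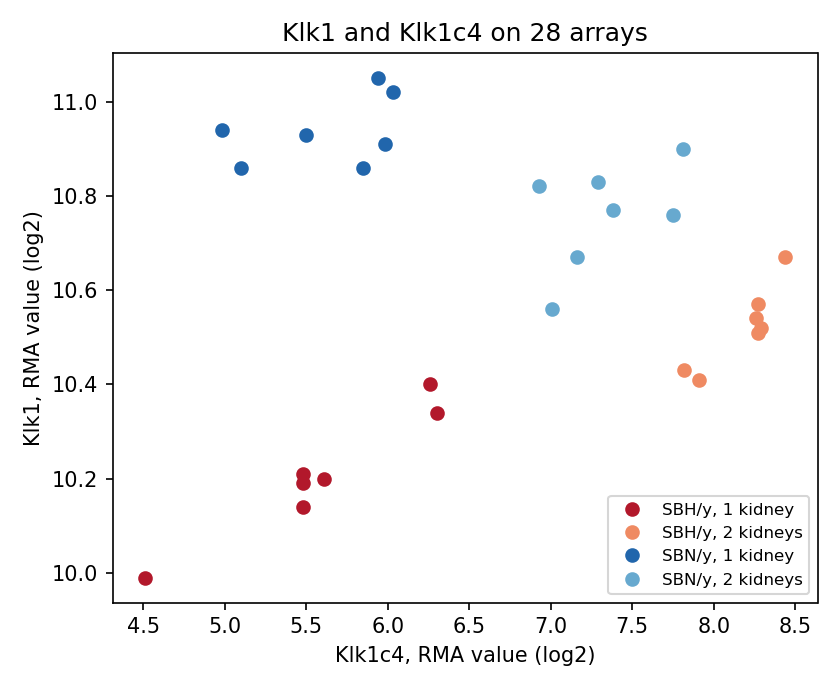
Klk1 against Klk1c4 on 28 arrays, each axis an RMA value (log2) and each point an array coloured by group. The groups occupy separate corners, and within SBH/y the points rise together (r = 0.977 with 1 kidney and 0.892 with 2).

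The genes most like each member were ranked by Pearson's r over 28 arrays among 9438 genes, as a description. Klk1 was nearest to Klk1b3 (0.97), the glucagon receptor Gcgr (0.95), Sbspon (0.93), Rap1gap (0.93) and Appl2 (0.93). Klk1c4 was nearest to Asb9 (0.90), the vitamin E-binding protein gene Afm (0.89), the glutamate carboxypeptidase Folh1 (0.84), Id4 (0.84) and the cortisone reductase Hsd11b1 (0.83). The member lists had no gene in common. When the deviations from group means were used instead, Klk1 was nearest to Klk1b3 (0.87), Gstt1 (0.85), Capns1 (0.80), Kat2a (0.78) and Scamp3 (0.78). By deviations, Klk1c4 was nearest to Kdm1b (0.76), Fpgt (0.76), Bccip (0.75), Parn (0.74) and Nol4l (0.74). Klk1b3 was the only gene kept on a list of 5 by both measures.

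Genes of the kinin system other than tissue kallikrein were tested with limma, with p-values adjusted over all 31042 probe sets. Of 25 genes listed, 19 were measured, and the kininogen genes Kng1 and Kng2 were not analysed here. With 1 kidney, 5 of the 19 were higher and 4 lower in SBH/y than in SBN/y, against 14.9% and 11.9% of all genes. With 2 kidneys, 4 were higher and 5 lower, against 11.8% and 9.69%. After uninephrectomy, 2 were higher and 3 lower in SBH/y (background 4.85% and 5.51%), and 0 passed in SBN/y (background 0.288% and 0.317%). At that background a count of 0 among 19 says little. At an unadjusted limma p under 0.05, 0 were higher and 3 lower in SBN/y. The median difference of the list lay between -0.05 and 0.03 in these 4 comparisons, beside -0.01 to 0.01 for all genes.

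On the supply side, Klkb1, plasma prekallikrein, which releases kinins in blood, was lower in SBH/y by -0.91 ± 0.08 with 1 kidney (adjusted p = 3.03e-10) and by -0.83 ± 0.08 with 2 kidneys (adjusted p = 3.04e-09). Its arrays lay between 3.54 and 3.79 in 1-kidney SBH/y, against 4.42 to 4.90 in 1-kidney SBN/y, all in the dim part of the scale. F12, the factor that activates it, was lower by -0.23 ± 0.06 with 1 kidney (adjusted p = 0.0034) and -0.31 ± 0.06 with 2 (adjusted p = 0.000189). Neither kinin receptor passed in any comparison. Bdkrb2, the constitutive receptor, differed between the strains by -0.14 ± 0.07 with 1 kidney (adjusted p = 0.205) and -0.19 ± 0.07 with 2 (adjusted p = 0.0747). Bdkrb1, the receptor induced by injury, differed by -0.05 ± 0.07 with 1 kidney (adjusted p = 0.70) and its group means were all between 3.42 and 3.54.

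Among peptidases listed as kinin-cleaving, 5 of 15 were higher and 2 lower in SBH/y with 1 kidney, against 14.9% and 11.9% of all genes, so the share lower was near the background. The 5 include Enpep, which acts on angiotensin II. Its strain difference with 1 kidney was -0.0098 (limma, adjusted p = 0.907) with the mean over its probe sets. Prep, prolyl endopeptidase, was higher by 1.08 ± 0.07 (adjusted p = 1.06e-12), and Cpm, the membrane carboxypeptidase M, was lower by -1.04 ± 0.08 (adjusted p = 1.38e-11). Both differed the same way with 2 kidneys, by 0.87 and -0.73. Mme, neprilysin, averaged 10.34 ± 0.08 in SBH/y and 10.85 ± 0.06 in SBN/y with 1 kidney (SD, n = 7 each), a difference of -0.51 ± 0.05 (adjusted p = 2.92e-10). It fell after uninephrectomy in SBH/y by -0.27 ± 0.05 (adjusted p = 0.000213), whereas the difference in SBN/y was -0.02 ± 0.05 (adjusted p = 0.972). The interaction for Mme was -0.25 ± 0.06 (adjusted p = 0.042), a call made for 1.41% of all probe sets and lost for Mme on quantile normalisation. Ace, the angiotensin-converting enzyme and a kininase, was lower in SBH/y with 2 kidneys by -0.54 ± 0.09 (adjusted p = 2.39e-05) and differed by -0.17 ± 0.09 with 1 (adjusted p = 0.192). The Ace difference after uninephrectomy was -0.34 ± 0.09 in SBN/y (limma, adjusted p = 0.0735) and 0.03 ± 0.09 in SBH/y (adjusted p = 0.907). Enpep, a glutamyl aminopeptidase that acts on angiotensin II, rose after uninephrectomy in SBH/y by 0.31 ± 0.04 (adjusted p = 4.56e-06). The Enpep value depends on the probe set, as the mean over its probe sets gave 0.0976 (adjusted p = 0.137).

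Kallikreins are held in check by serine protease inhibitors. In 1-kidney SBH/y, 6 of 18 listed inhibitors were higher and 3 lower than in SBN/y, against 14.9% and 11.9% of all genes, so the share lower was near the background. The 18 include Cst3, cystatin C, which inhibits cysteine proteases and not serine proteases. Cst3 averaged 11.13 in SBH/y and 10.91 in SBN/y with 1 kidney. Serpina4, kallistatin, differed by -0.03 ± 0.08 (adjusted p = 0.848), and Serpina3c, the rat kallikrein-binding protein, by -0.23 ± 0.17 (adjusted p = 0.412), with all its arrays between 3.57 and 5.46. The inhibitors named next act on other proteases as well. Serpine2, protease nexin-1, was higher in SBH/y by 1.14 ± 0.09 with 1 kidney (adjusted p = 3.80e-11) and 0.97 ± 0.09 with 2 (adjusted p = 1.36e-09). Serpinc1, antithrombin, was higher by 0.93 ± 0.07 with 1 kidney (adjusted p = 5.70e-12) and 1.03 ± 0.07 with 2 (adjusted p = 4.99e-13). A2m, a broad protease trap, rose after uninephrectomy in SBH/y by 0.94 ± 0.12 (adjusted p = 7.94e-06), and its difference in SBN/y was 0.16 ± 0.12 (adjusted p = 0.812). The interaction for A2m was 0.78 ± 0.17 (adjusted p = 0.0166).

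Of 12 other kallikrein-related and channel-activating proteases measured, 1 was higher and 4 lower in SBH/y with 1 kidney (14.9% and 11.9% of all genes). Tmprss2, a membrane serine protease, was lower by -0.40 ± 0.05 (adjusted p = 6.25e-07). The matriptase gene St14 was lower by -0.23 ± 0.05 (adjusted p = 0.000534), and Prss23 by -0.22 ± 0.05 (adjusted p = 0.00061). Plat, tissue plasminogen activator, fell after uninephrectomy in SBH/y by -0.26 ± 0.06 (adjusted p = 0.00511) and was 0.36 ± 0.06 higher in SBH/y than in SBN/y with 2 kidneys (adjusted p = 4.80e-05). None of the 12 passed in SBN/y after uninephrectomy (1 higher at an unadjusted limma p under 0.05). The differences of these 12 after uninephrectomy in SBH/y ran from -0.26 for Plat to 0.33 for Cela1, beside -2.59 for Klk1c4.

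The distal convoluted and connecting tubule, where tissue kallikrein is made, was followed with 20 of 24 listed markers. With 1 kidney, 2 were higher and 9 lower in SBH/y than in SBN/y (14.9% and 11.9% of all genes). With 2 kidneys, 0 were higher (3 at an unadjusted p under 0.05) and 7 lower (11.8% and 9.69% of all genes). Lower levels were not particular to this segment. With 2 kidneys, 6 of 11 thick ascending limb and 4 of 9 intercalated cell markers were lower and 0 higher, while 3 of 16 proximal tubule markers were higher and 0 lower. The median difference of the distal list was -0.14 with 1 kidney and -0.13 with 2. Its summed level had a median of 13.72 in SBH/y and 14.15 in SBN/y with 1 kidney, and 13.62 and 14.01 with 2. Such sums add unlogged values, so bright genes weigh most. Calb1, a bright gene of this list, averaged 11.28 in SBH/y and 12.30 in SBN/y with 1 kidney. The sum therefore does not describe the segment as a whole. The part of any segment in the Klk1 difference was not tested. Calb1, calbindin-D28k, differed by -1.02 ± 0.11 with 1 kidney (adjusted p = 7.47e-09) and by -0.86 ± 0.11 with 2 (adjusted p = 2.46e-07). The sodium-calcium exchanger Slc8a1 differed by -0.72 ± 0.07 (adjusted p = 2.09e-09), the phosphatase inhibitor Ppp1r1a by -0.70 ± 0.05 (adjusted p = 4.51e-13), and the kinase Stk39 by -0.50 ± 0.05 (adjusted p = 3.58e-09), all with 1 kidney. Slc12a3, the thiazide-sensitive sodium-chloride cotransporter, differed by -0.10 ± 0.08 (adjusted p = 0.424), and the calcium channel gene Trpv5 by 0.10 ± 0.09 (adjusted p = 0.48). Fgf13 went the other way with 1 kidney, averaging 6.56 in SBH/y and 5.62 in SBN/y.

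After uninephrectomy, where the Klk1c4 level was lower, none of these markers was called lower. In SBH/y 4 of 20 were higher and 0 lower (4.85% and 5.51% of all genes), or 6 and 5 at an unadjusted limma p under 0.05, and 1 to 3 were called lower under other settings of the fit. The 5 lower at that unadjusted limit were Kcnj16 (-0.15), Klhl3 (-0.21), S100g (-0.28), Stk39 (-0.13) and Ppp1r1a (-0.10). In SBN/y 2 were higher and 0 lower (0.288% and 0.317% of all genes), or 6 and 1 unadjusted. At these background shares a count of 0 lower among 20 markers says little. Calb1 averaged 11.28 ± 0.15 with 1 kidney and 10.89 ± 0.23 with 2 kidneys in SBH/y, and 12.30 ± 0.09 with 1 kidney and 11.76 ± 0.32 with 2 kidneys in SBN/y (SD, n = 7 each). The Calb1 difference was 0.38 ± 0.11 in SBH/y (adjusted p = 0.0213) and 0.54 ± 0.11 in SBN/y (adjusted p = 0.0152). The call in SBH/y was lost without 2-kidney SBH/y replicate 4 (0.34, adjusted p = 0.0543) or 7 (0.34, adjusted p = 0.0561). Slc8a1 rose by 0.42 ± 0.07 in SBH/y (adjusted p = 0.000191) and 0.44 ± 0.07 in SBN/y (adjusted p = 0.00433). With the mean over its probe sets the SBN/y value was 0.31 (adjusted p = 0.0613), which left 1 distal marker called higher in SBN/y. Slc12a3 rose in SBH/y by 0.26 ± 0.08 (adjusted p = 0.0416), a call that 7 different single arrays could end. The count of 4 in SBH/y was 1 without 2-kidney SBH/y replicate 4, and 2 without 2-kidney replicate 3 or 7 or 1-kidney replicate 4 or 5.

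Sodium channel and mineralocorticoid response genes, which work downstream in the same tubule, were measured for 14 of 16 listed. With 1 kidney, 1 was higher and 7 were lower in SBH/y (14.9% and 11.9% of all genes). Kcnj1, the ROMK potassium channel, was lower by -0.59 ± 0.10 (adjusted p = 2.88e-05), the channel subunit Scnn1b by -0.28 ± 0.05 (adjusted p = 0.000123), and Hsd11b2, which protects the mineralocorticoid receptor from glucocorticoids, by -0.24 ± 0.04 (adjusted p = 5.48e-05). Atp12a, the non-gastric proton-potassium pump, had the same order of 2-kidney strains and the same direction after uninephrectomy in SBH/y as Klk1c4. It averaged 4.96 ± 0.21 with 1 kidney and 5.84 ± 0.28 with 2 kidneys in SBH/y, and 4.90 ± 0.13 with 1 kidney and 4.84 ± 0.17 with 2 kidneys in SBN/y (SD, n = 7 each). The Atp12a difference after uninephrectomy was -0.88 ± 0.10 in SBH/y (adjusted p = 1.27e-06) and 0.06 ± 0.10 in SBN/y (adjusted p = 0.951), and the interaction was -0.94 ± 0.14 (adjusted p = 0.000936). Klk1c4, unlike Atp12a, was lower after uninephrectomy in SBN/y too. Nr3c2, the mineralocorticoid receptor, fell in SBH/y by -0.23 ± 0.05 (adjusted p = 0.00303), with an interaction of -0.38 ± 0.07 (adjusted p = 0.00442).

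**Figure D4:**
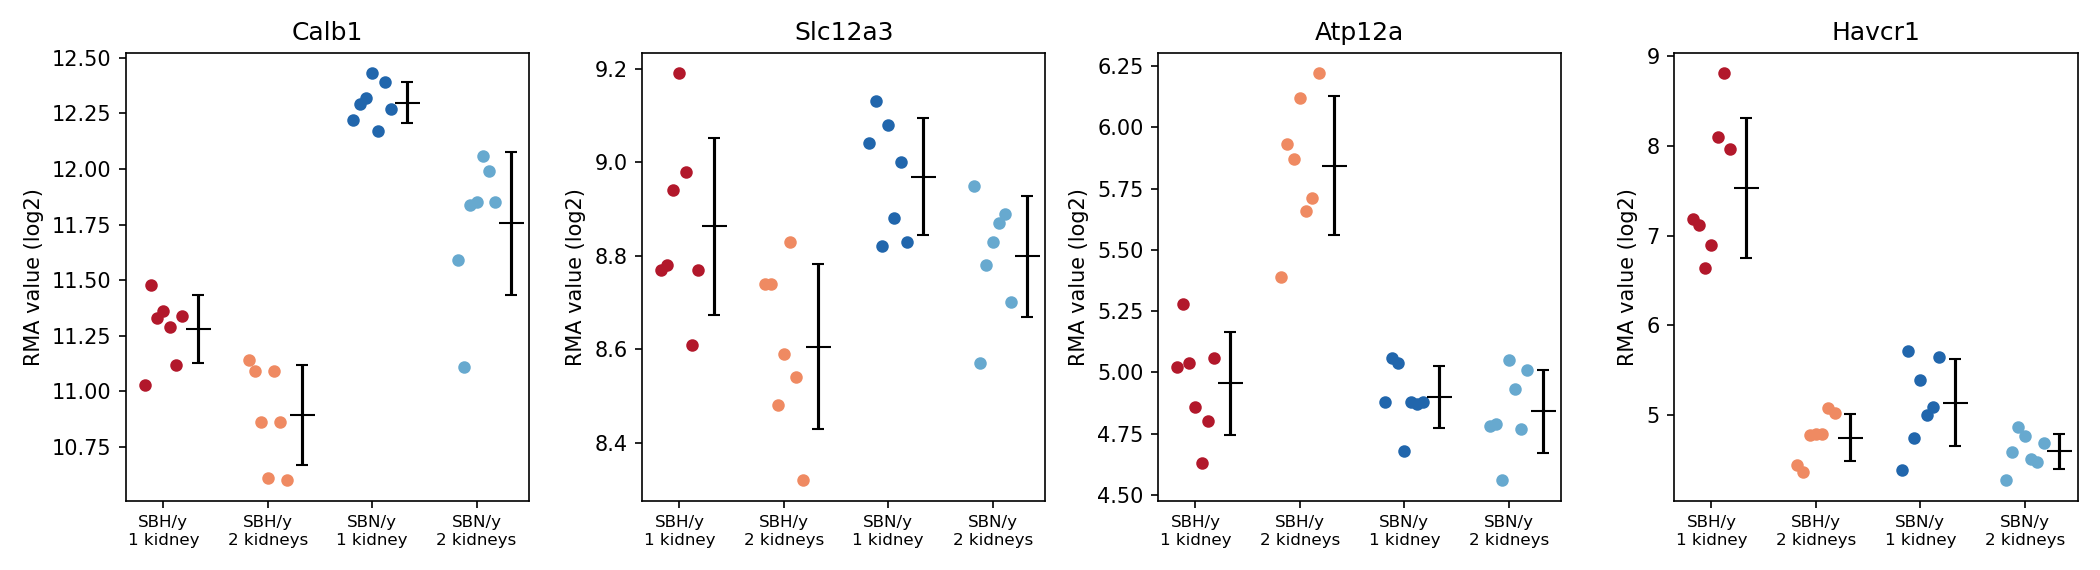
RMA values (log2) of Calb1, Slc12a3, Atp12a and Havcr1 on each array by group, with the mean and SD of 7 arrays, on axes that do not start at 0. Calb1 and Slc12a3, 2 of the distal convoluted and connecting tubule markers, are not lower with 1 kidney. Of the 20 markers on that list, 6 were higher and 5 lower in SBH/y at an unadjusted limma p under 0.05. Atp12a is highest in 2-kidney SBH/y (mean 5.84), and Havcr1 is highest in 1-kidney SBH/y (mean 7.53).

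Markers of other segments differed between strains as well, where 14.9% of all genes were higher and 11.9% lower in SBH/y with 1 kidney. With 1 kidney, 8 of 11 thick ascending limb markers were lower and 1 higher in SBH/y, with the calcium receptor Casr at -1.37 ± 0.06 (adjusted p = 1.11e-17). Of 9 intercalated cell markers 6 were lower and 0 higher, Slc4a1 by -0.59 ± 0.07 (adjusted p = 2.50e-08). Of 12 principal cell markers 4 were lower and 1 higher, and of 16 proximal tubule markers 7 were higher and 0 lower. Macrophage markers were higher for 8 of 12 and lower for 2, with a summed level of 12.42 to 12.73 in SBH/y and 11.68 to 11.88 in SBN/y. Most of that sum was Lyz2, which averaged 12.19 in SBH/y and 11.25 in SBN/y with 1 kidney. Tubular injury markers rose after uninephrectomy in SBH/y for 8 of 15, with 0 lower (4.85% and 5.51% of all genes), and 0 passed in SBN/y (0.288% and 0.317%), where 3 were higher and 1 lower at an unadjusted limma p under 0.05. The injury marker Havcr1 averaged 7.53 ± 0.78 with 1 kidney and 4.74 ± 0.26 with 2 kidneys in SBH/y, a difference of 2.79 ± 0.23 (adjusted p = 4.37e-09). In SBN/y it averaged 5.13 ± 0.48 with 1 kidney and 4.59 ± 0.20 with 2 kidneys, a difference of 0.54 ± 0.23 (adjusted p = 0.474). The summed injury level had a median of 13.40 with 1 kidney and 12.86 with 2 kidneys in SBH/y, and 12.95 with 1 kidney and 12.87 with 2 kidneys in SBN/y. Spp1, the brightest gene of that list, weighs most in the sum. It averaged 12.46 and 11.59 in SBH/y and 11.71 and 11.61 in SBN/y, with 1 and 2 kidneys. The part of injury in the Klk1 and Klk1c4 values was not tested in either strain.

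Tissues next to the kidney, or other glands that make kallikreins, were looked at in the same way. Over all genes, 4.85% were higher and 5.51% lower after uninephrectomy in SBH/y, and 0.288% and 0.317% in SBN/y. At these shares a count of 0 in so short a list says little. After uninephrectomy none of 12 exocrine gland and pancreas markers passed in either strain (0 in SBH/y and 2 lower in SBN/y at an unadjusted limma p under 0.05), and their summed level lay between 7.32 and 7.61 on all but 1 array, a 2-kidney SBN/y array at 8.45. None of 8 adrenal markers passed after uninephrectomy, with 0 in SBH/y and 1 higher in SBN/y unadjusted. Of 9 adipose markers, 0 passed in SBH/y after uninephrectomy (1 higher and 1 lower unadjusted). In SBN/y 1 was lower, the fat-synthesis gene Scd, and 5 were lower unadjusted, with a median difference of -0.39 for the list. Klk1c4 was also lower in that comparison. With 2 kidneys, 3 of the 9 were lower and 0 higher in SBH/y than in SBN/y (9.69% and 11.8% of all genes), where Klk1c4 was 0.85 higher. The summed adipose level had a median of 12.98 with 1 kidney and 13.10 with 2 kidneys in SBH/y, and 13.10 with 1 kidney and 13.22 with 2 kidneys in SBN/y. Most of that sum was Pck1, which averaged 12.85 and 12.97 in SBH/y and 12.97 and 12.95 in SBN/y, with 1 and 2 kidneys. The sum therefore says little about the other fat markers, which were far dimmer. Scd differed by -1.97 ± 0.41 after uninephrectomy in SBN/y (adjusted p = 0.0232), a call lost without 1-kidney replicate 5 (-1.87, adjusted p = 0.0556) or 2-kidney replicate 5 (-1.73, adjusted p = 0.0628). The brown fat gene Ucp1 averaged 6.54, 5.48, 6.96 and 8.23, and Scd 5.30, 5.55, 5.61 and 7.58, in SBH/y with 1 and 2 kidneys and in SBN/y with 1 and 2 kidneys. Of 7 blood markers, 1 was higher and 1 lower in SBH/y after uninephrectomy. The part of any of these in the Klk1 and Klk1c4 values was not tested.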

How the data were processed

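Total RNA from whole kidney was biotin-labelled and hybridised, 1 sample per array, per the labels. The authors deposited 1 table of log2 values for 31099 probe sets on 28 arrays, made with GCOS and RMA per the submitters' processing notes. RMA equalises the distributions of the arrays, so a difference in total RNA would not show. Scanner files and detection calls were not used here. After 57 control probe sets were left out, 31042 were tested. Of these, 20826 carry 1 gene symbol, 436 several and 9780 none, and the probe set with the highest mean stood for each of 14217 genes.

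Means of the 4 groups were fitted to 28 arrays with limma 3.58.1 (R 4.3.3), with 5 contrasts and Benjamini-Hochberg adjustment over all probe sets at 0.05. Groups came from the labels. The members, the 17 gene lists and the genes named were chosen with earlier results of these data known. The rule named members and family paralogues in full, in each list the genes with the strongest evidence plus defining genes, and the 5 genes most like each member. Relations within groups used exact two-sided permutation tests. On simulated data for the 1-kidney strain comparison (31042 probe sets, 200 changed), the fit recovered 92% of differences of 0.5 and 99% of differences of 1 on the log2 scale, with 11 false calls. The simulated arrays varied independently, and the real comparison called 6663 probe sets, so these rates need not hold for the real arrays. Promoters were aligned with Biopython 1.88. Array correlations lay between 0.985 and 0.997, and no 2 arrays held equal values. Replicate numbers were not taken to pair arrays, as the labels give them no shared animal, batch or day. The data held a hint of pairing by number, given below, and a shared batch was not excluded. Alternatives were quantile normalisation, median centring, leaving out the dimmest 40% of probe sets, robust and trended moderation, the mean over a gene's probe sets, the replicate number as a block and each array left out in turn.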

Additional observations from a re-analysis of the deposited data

Results flagged for a closer look

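Among 48 sets of 7 arrays looked at (a gene in a group), 2 held an array far from the others, where chance gives about 1 in 20. In 1-kidney SBN/y, replicate 3 read 3.56 for Klk1c2 and the other arrays 3.32 to 3.42. In 2-kidney SBN/y, replicate 1 read 5.98 for the trypsinogen gene Prss1 and the other arrays 3.0 to 3.62, and that array read 10.77 for Klk1 and 7.38 for Klk1c4, both inside the range of its group.

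The effect of uninephrectomy differed between strains for 10 of the list genes named (limma interaction, adjusted over all probe sets). The named genes were picked in part by their interaction p, so the count of 10 cannot be set against the 1.41% of all probe sets called. Other list genes were called too. In the tubular injury list, 6 of 15 were called higher, of which Havcr1 and Gpnmb are named here. For Havcr1, the interaction was 2.25 (adjusted p = 0.000741), from 2.79 in SBH/y and 0.54 in SBN/y. The brown fat gene Ucp1 had 2.33 (adjusted p = 0.0222), from 1.06 in SBH/y and -1.27 in SBN/y, neither of which passed alone (adjusted p = 0.0861 and 0.162). Gpnmb, a gene of injured and phagocytic cells, had 0.87 (adjusted p = 0.00295), from 1.15 in SBH/y and 0.28 in SBN/y. For A2m it was 0.78 (adjusted p = 0.0166), from 0.94 and 0.16 in the same order. For Fgf13 it was 0.67 (adjusted p = 0.0166), from 0.29 in SBH/y and -0.38 in SBN/y. For Enpep it was 0.26 (adjusted p = 0.0134), from 0.31 in SBH/y and 0.06 in SBN/y, but -0.0076 (adjusted p = 0.981) with the mean over its probe sets. Atp12a had -0.94 (adjusted p = 0.000936), from -0.88 in SBH/y and 0.06 in SBN/y. Nr3c2 had -0.38 (adjusted p = 0.00442), from -0.23 in SBH/y and 0.15 in SBN/y. Tmprss2 had -0.32 (adjusted p = 0.02), from -0.16 in SBH/y and 0.17 in SBN/y, and -0.25 (adjusted p = 0.0805) with the mean over its probe sets. Mme had -0.25 (adjusted p = 0.042), from -0.27 in SBH/y and -0.02 in SBN/y.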

How the results depend on the processing

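With each array left out in turn, the Klk1 difference stayed between -0.27 and -0.22 for strain with 2 kidneys, -0.76 and -0.69 for strain with 1 kidney, -0.34 and -0.27 after uninephrectomy in SBH/y, 0.14 and 0.20 in SBN/y, and -0.52 and -0.45 for the interaction. For Klk1c4 the ranges were 0.78 to 0.93, -0.16 to 0.14, -2.71 to -2.41, -1.77 to -1.60 and -1.0 to -0.71 in the same order, so the sign with 1 kidney depends on single arrays. Both members have 1 probe set, so no mean over probe sets could be made.

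With each array left out, the kinin-system genes called higher numbered 3 to 4 (strain, 2 kidneys), 4 to 5 (strain, 1 kidney), 2 to 3 (uninephrectomy, SBH/y), 0 (uninephrectomy, SBN/y) and 1 (interaction), and those called lower 5 to 6, 4, 3 to 4, 0 to 1 and 0 to 1. Distal tubule markers called higher numbered 0 to 1, 2, 1 to 5, 2 and 1, and those called lower 7 to 8, 8 to 10, 0 to 2, 0 to 1 and 0 to 1, in the same order. Deviations of same-numbered arrays had a mean correlation of 0.10 to 0.20 in the 6 pairs of groups, against -0.03 to -0.02 for other numbers. Of 42 same-numbered pairs, 24 exceeded 0.1. In 16 of 42 comparisons of an array with the 7 arrays of another group, the best match was its own number, which 1 of those 7 carries. This is a hint of pairing from the data and not from the design. The standard errors and p-values of the main fit do not account for it. With the replicate number as a block, calls over all probe sets were 6689 in place of 5570, 7567 in place of 6663, 3500 in place of 2558, 280 in place of 144 and 812 in place of 439, in the same order. The block gave 2 kinin-system genes lower in SBN/y after uninephrectomy, 2 higher in the interaction, 1 distal marker higher by strain with 2 kidneys, 3 lower after uninephrectomy in SBH/y and 1 lower in the interaction, and it ended no call on a named gene.

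Without the dimmest 40% of probe sets, and likewise with robust and trended moderation, 1 kinin-system gene was lower in SBN/y after uninephrectomy, and 1 distal marker each was higher by strain with 2 kidneys, lower after uninephrectomy in SBH/y and lower in the interaction. Quantile normalisation and median centring left 0 kinin-system genes lower in the interaction. The mean over a gene's probe sets gave 1 kinin-system gene higher after uninephrectomy in SBH/y, 1 lower in SBN/y and 0 higher in the interaction, and distal counts of 1 higher by strain with 2 kidneys, 1 higher by strain with 1 kidney, 2 lower after uninephrectomy in SBH/y and 1 higher in SBN/y. The Klk1 with Klk1c4 correlation, without the 2 arrays farthest from the median, was 0.968 in 1-kidney SBH/y and 0.914 in 2-kidney SBH/y, with 5 arrays left (adjusted exact permutation p = 0.32 each).

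Enpep changed sign with the mean over its probe sets, to -0.0098 for strain with 1 kidney and -0.0076 for the interaction, and Serpina4 for strain with 1 kidney ranged from -0.0578 to 0.0018 with each array left out, the positive value without 1-kidney SBH/y replicate 5. The Mme interaction was -0.23 (adjusted p = 0.0587) on quantile normalisation, -0.24 (adjusted p = 0.0536) on median centring, and not called without any 1 of 17 arrays. The mean over probe sets ended the calls on Slc8a1 in SBN/y (0.31, adjusted p = 0.0613) and on the Tmprss2 interaction (-0.25, adjusted p = 0.0805). The causes were not tested. The dim signal of Klk1c4 with 1 kidney limits how precisely its folds are known.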
